A study of Mus musculus with 15 samples.

Results

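The genes described here are 43 genes of the type I interferon response, measured by RNA sequencing in mouse splenic B cells. They were taken from a list of gene symbols whose rule uses no measured value, although the list was drawn up with earlier results of these data known. All 43 were found among the 54838 genes of the deposited count table, and 42 had enough counts to be tested. The exception was Ifit3b, which had counts in naive and germinal centre cells alone.

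Type I interferons are secreted by cells that sense viral or bacterial nucleic acids or endotoxin. They bind a receptor made of the IFNAR1 and IFNAR2 chains, and the kinases JAK1 and TYK2 then activate the complex ISGF3, which holds STAT2 and IRF9 and binds a DNA element named the interferon-stimulated response element (ISRE) and switches on antiviral genes. B cells respond to interferon in this way, and a low tonic level of the same genes is known in resting lymphocytes. Interferon gamma, through its own receptor, induces some of the same genes, in particular the guanylate-binding proteins.

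The mice were wild-type males, 3 months old, of a strain not given in the labels, and all had received sheep red blood cells, a particulate antigen that raises germinal centres in the spleen, 9 days before the spleens were taken. After enrichment for B220, naive B cells and germinal centre (GC) B cells were isolated by sorting, and 3 libraries were made of each. A further 9 libraries came from naive cells kept for 5 days in embryonic stem cell medium, 3 each titled CD40, CpG and LPS. Antibody to CD40, which mimics T cell help, was used at 5 µg/ml with mouse IL-4 at 80 ng/ml. CpG, a ligand of the endosomal receptor TLR9, was used at 2 µM, and lipopolysaccharide (LPS), a ligand of TLR4, at 25 µg/ml. Whether the CpG and LPS cultures also held IL-4 is not clear from the labels, which mention no culture of the naive and GC cells. The libraries of each group are lettered A, B and C. What a letter stands for is not stated, nor is any pooling of animals. The p-values therefore speak of the spread among these libraries, and activated libraries of 1 letter may share cells or animals.

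Library totals ran from 25397624 to 36272197 counts, and 11523 to 19320 genes had at least 1 count, the fewest in naive replicate B. Markers fixed for B cells summed to between 4637 and 13206 CPM (counts scaled to library size) in every library, so the labelled cell type was present throughout. Germinal centre markers summed to 2062 to 2322 CPM in GC libraries against 71.3 to 128.8 in naive ones. Erythroid markers reached 297.5 CPM in naive replicate B and at most 7.41 CPM in GC libraries. T cell, NK cell and neutrophil markers summed to at most 26.2 CPM in any library, with the NK cell and neutrophil maxima also in naive replicate B. Monocyte and macrophage markers summed to 7.58 to 34.8 CPM in naive, 11.7 to 17.9 in GC and 28.2 to 47.8 in activated libraries. Plasmacytoid dendritic cells are the professional interferon producers. Of their 6 markers Klk1 and Cd209d were at 0 in every library, Siglech was at most 0.714 CPM, and nearly all of their sum came from Tcf4, which B cells also express.

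As a set, the 43 genes stood high in naive cells, low in GC cells, and at either of 2 levels in activated cells depending on the replicate letter. The level of the set is the mean over its genes of log2 CPM, and it is given as a description without a test. It was 4.15, 3.80 and 4.56 in naive A, B and C, and 2.11 ± 0.036 in GC cells (SD, n = 3 libraries). The 3 activated libraries lettered A stood at 2.15 ± 0.10 and those lettered B at 2.31 ± 0.083, both close to GC cells. Those lettered C stood at 4.50 ± 0.12, with 2 of the 3 inside the range of the naive libraries and the LPS library, at 4.59, just above it. Grouped by stimulus, the same libraries gave 2.94 ± 1.39 with CD40, 2.95 ± 1.24 with CpG and 3.07 ± 1.32 with LPS. The wide spread of these groups is the step between letter C and the other letters, which appeared with every stimulus. In summed CPM the set took 1686 ± 160 in naive, 760.1 ± 43.1 in GC, 881 ± 31.9 in activated A, 1157 ± 39.4 in activated B and 2249 ± 139 in activated C, where each library lay above every naive one.

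**Figure D1:**
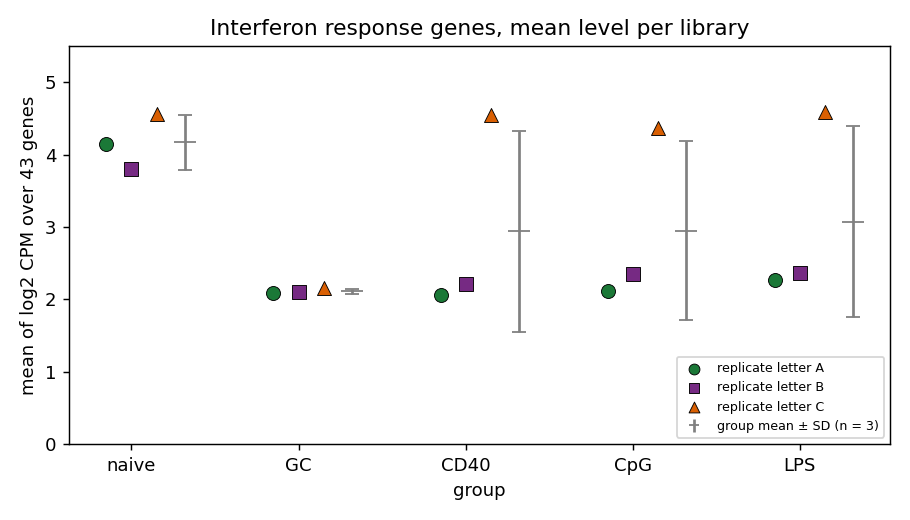
Mean over the 43 genes of log2 CPM (y axis, prior count 2) in each of the 15 libraries, by group on the x axis, with colour and shape for the replicate letter and grey bars for the group mean ± SD (n = 3). The 3 activated libraries lettered C lie between 4.37 and 4.59, beside the naive libraries, while those lettered A and B lie between 2.06 and 2.36, beside the GC libraries.

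The ISRE, through which ISGF3 acts, has a core that can be searched for in the promoters of these genes, and a few stretches are printed to show it in members of different roles. Promoter windows of 300 bases (250 before to 50 after the start) from RefSeq on GRCm38.p6 were matched by symbol for 33 of the 43 genes. The ISRE core GAAANNGAAA, searched on both strands, was present in the window of 20 of these 33 genes (60.6%), against 1079 of 27025 genes with such windows (3.99%). It was not in the windows of the other 13, among them Oasl1, Oasl2, Irf7, Irf9 and Ifi44, and 10 members, among them Rtp4, Oas2, Mx1 and Mx2, had no window. The STAT dimer motif TTCNNNGAA, also searched on both strands, was present in 7 of the 33 (21.2%), against 9.55% of all genes. The motifs do not exclude each other, and a match is a description of the sequence, not a site shown to be bound. Isg15, which encodes a ubiquitin-like protein, has 3 overlapping cores that begin 78, 72 and 66 bases before its start. The 250 bases before its start are given on the strand of the gene, 5′ to 3′, with bases of an ISRE core in capitals.
Isg15, chr4:156200819-156201068, minus strand: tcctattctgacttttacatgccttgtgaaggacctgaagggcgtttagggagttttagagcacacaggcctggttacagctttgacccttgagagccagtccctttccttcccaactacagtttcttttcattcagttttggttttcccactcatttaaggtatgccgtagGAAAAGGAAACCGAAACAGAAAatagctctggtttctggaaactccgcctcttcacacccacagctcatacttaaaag

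Shorter stretches of 40 bases, also on the strand of the gene, show the core in genes of other roles. In Stat2, Ifit1, Ifit3, Ifit3b, Rsad2, Gbp2, Gbp3 and Slfn8 it lies on the opposite strand and reads as TTTC repeats. Ifit1 has a further core that runs out of the stretch, and the stretches of Ifit3 and Ifit3b are identical, as are many of their exonic bases. The core of Gbp2, whose levels followed another pattern than most members, begins 59 bases before its RefSeq start and inside the gene as GENCODE annotates it.
Stat2, chr10:128270261-128270300, plus strand: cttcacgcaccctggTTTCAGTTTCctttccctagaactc
Ifit1, chr19:34640770-34640809, plus strand: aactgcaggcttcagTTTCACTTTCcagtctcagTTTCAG
Ifit3, chr19:34583358-34583397, plus strand: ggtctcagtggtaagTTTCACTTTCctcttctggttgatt
Ifit3b, chr19:34607754-34607793, plus strand: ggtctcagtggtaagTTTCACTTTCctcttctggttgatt
Rsad2, chr12:26456548-26456587, minus strand: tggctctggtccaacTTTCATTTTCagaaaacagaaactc
Bst2, chr8:71537578-71537617, minus strand: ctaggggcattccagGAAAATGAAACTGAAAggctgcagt
Oas3, chr5:120777710-120777749, minus strand: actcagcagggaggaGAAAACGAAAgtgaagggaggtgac
Gbp3, chr3:142559984-142560023, plus strand: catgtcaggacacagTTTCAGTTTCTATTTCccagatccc
Gbp2, chr3:142620589-142620628, plus strand: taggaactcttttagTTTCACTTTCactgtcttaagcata
Igtp, chr11:58199507-58199546, plus strand: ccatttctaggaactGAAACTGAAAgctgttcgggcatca
Slfn8, chr11:83020834-83020873, minus strand: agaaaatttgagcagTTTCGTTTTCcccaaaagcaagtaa

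Several members are neighbours in the genome, and some cannot be told apart fully by short reads. The 4 IFIT genes lie within 99.3 kb of chromosome 19, and Oas1a, Oas1g, Oas2 and Oas3 within 177.2 kb of chromosome 5. Mx1 and Mx2 lie within 113.9 kb and Parp9, Dtx3l and Parp14 within 139.7 kb of chromosome 16, and Rsad2 and Cmpk2 within 37.1 kb of chromosome 12. Chromosome 11 holds 8 members. On GRCm38, Isg15 (ENSMUSG00000035692) spans chr4:156199424-156200818, Oasl1 (ENSMUSG00000041827) chr5:114923240-114937915, and Irf7 (ENSMUSG00000025498) chr7:141262706-141266481. Gbp2 (ENSMUSG00000028270) spans chr3:142620602-142638008, Ddx58 (ENSMUSG00000040296) chr4:40203773-40239828, and Mx2 (ENSMUSG00000023341) chr16:97535308-97560900. Of the 50-base stretches in their annotated transcripts (GENCODE M21), Ifit3 shares 51.2% with Ifit3b, and Oas1a shares 57.6% with Oas1g. Herc6 (12.5%), Rtp4 (11.6%), Igtp (11.8%) and Slfn8 (14.6%) also share more than 10% with other genes, and how the authors counted reads of several origins is not given in the sources used here. Values of these 8 members are therefore uncertain, and the other 35 share less. Slfn5 overlaps the antisense gene Slfn5os over 559 exonic bases, and reads of the pair may not have been told apart, since the strand setting of the count is not given.

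**Figure D2:**
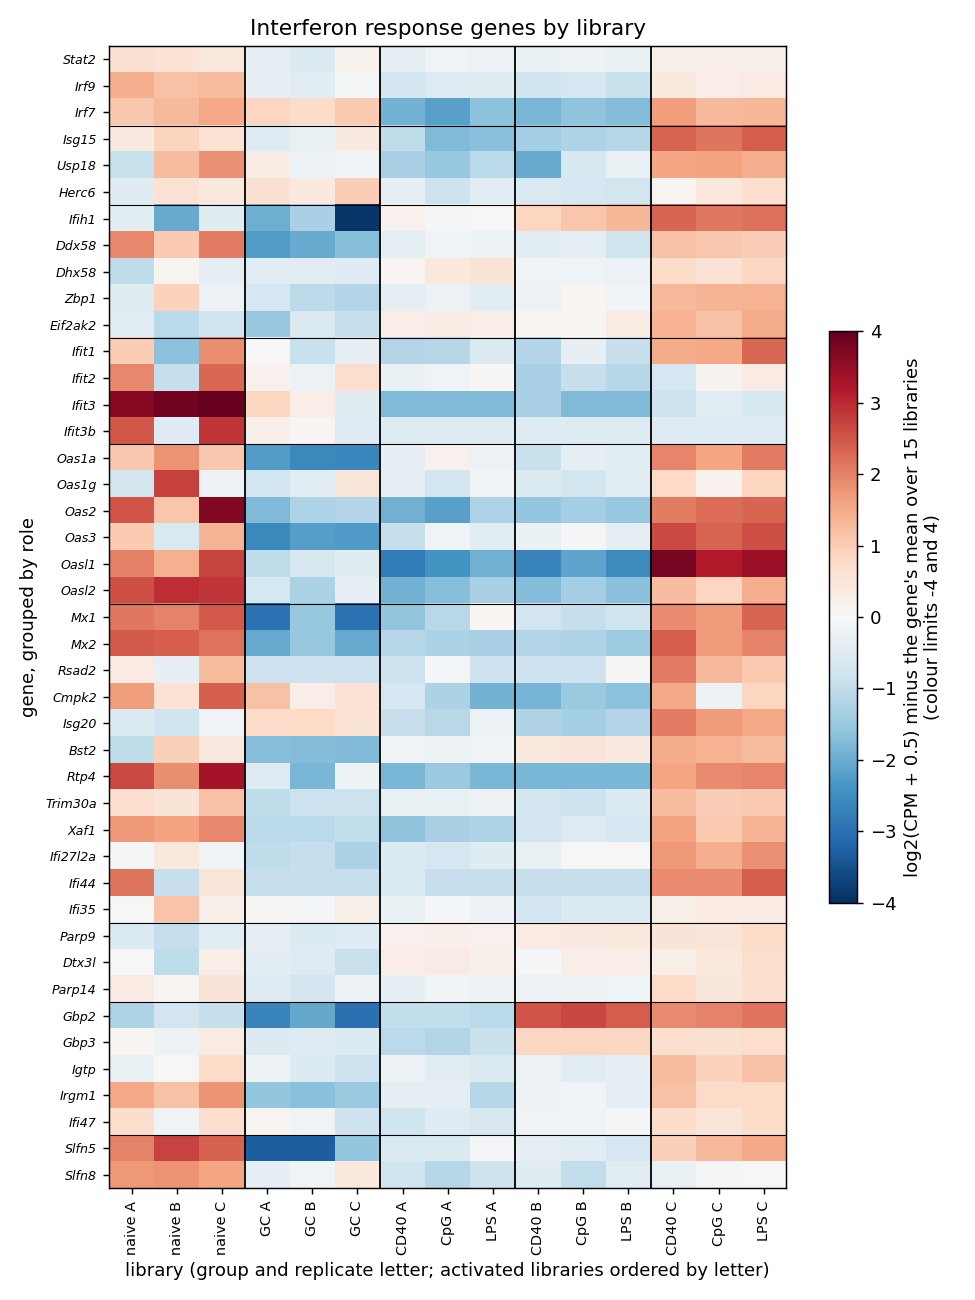
Each of the 43 genes (rows, grouped by role) in each of the 15 libraries (columns), as log2(CPM + 0.5) minus the mean of that gene over all libraries, with colours limited to -4 and 4. Most rows are red in naive cells and in activated C, and blue in GC cells and in activated A and B; Gbp2 and Gbp3 are red in activated B as well.

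In GC cells 13 of the 42 members tested were lower than in naive cells and none was higher (edgeR's quasi-likelihood test, Benjamini-Hochberg adjusted p under 0.05). Of all 17144 genes tested, 16.5% were lower and 17.9% higher. The median log2 fold change over the members was -1.60, against 0.00 over all genes, and 39 of 42 had a negative value. The spread in this fit is shared with the activated groups, which mix unlike letters. With the activated libraries grouped by letter, an alternative chosen after the data were seen, 27 members were lower and 1 was higher, against 20.3% and 21.6% of genes. In the 6 naive and GC libraries alone 20 of 40 were lower and 1 was higher, against 12.5% and 15.9%. The count was 6 without GC replicate A, 8 without GC replicate B and 7 without GC replicate C. In 25 of the 43 genes every GC library was below every naive library (18.4% of genes tested), and in 1, Isg20, every GC library was above (25.3%). Marker sums moved with this comparison too. Plasma cell markers summed to 10.3 to 35.3 CPM in naive and 1276 to 1604 CPM in GC libraries, naive follicular markers to 6380 to 7463 and 100.4 to 122 CPM, and NK cell markers to 9.01 to 26.2 and 0.218 to 0.891 CPM. Their part in the result was not tested. In bulk RNA, fewer cells of a type and less RNA per cell cannot be told apart.

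Both dedicated subunits of ISGF3 were lower in GC cells. Irf9, the DNA-binding subunit of ISGF3, measured 171, 140 and 151 CPM across the naive libraries (A, B and C throughout) and 49.0, 46.3 and 60.1 CPM in GC A, B and C. The groups did not overlap, and the log2 fold change was -1.57 (SE 0.36, adjusted p = 0.00382). Stat2, the other subunit, stood at 193, 183 and 167 CPM in naive cells and at 98.9, 84.9 and 139 CPM in GC cells. Its change was smaller (-0.75, SE 0.21, adjusted p = 0.0124), with GC replicate C nearest to the naive libraries. Irf7, which amplifies interferon production, stood at 35.0, 32.2 and 39.9 CPM in GC against 40.9, 47.4 and 56.9 CPM in naive libraries. No difference was called for it (-0.44, adjusted p = 0.814, or 0.0647 with the activated libraries grouped by letter).

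Among sensors of foreign nucleic acid, Ddx58, which encodes the RNA sensor RIG-I, had 127, 70.1 and 143 CPM in naive libraries. In GC libraries it had 6.68, 7.91 and 9.85 CPM. Every GC library lay far below every naive one, a 13.9-fold difference (log2 -3.80, SE 0.62, adjusted p = 0.000425). Ifih1, Dhx58, Zbp1 and Eif2ak2, the other sensors, were not called, and of these Zbp1 was called lower with the activated libraries grouped by letter (log2 -1.17, adjusted p = 0.00317). Ifih1 had 5.71, 1.56 and 5.55 CPM in naive and 1.65, 2.95 and 0.0659 CPM in GC libraries, and Zbp1 had 39.6, 106 and 46.9 CPM against 34.7, 26.5 and 24.5 CPM. Eif2ak2 encodes the kinase PKR that halts translation, and it had 17.4, 11.3 and 13.8 CPM in naive and 8.24, 16.0 and 12.6 CPM in GC libraries, which overlap.

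The Mx genes, dynamin-like GTPases that block virus replication, were nearly silent in GC cells. Mx2 stood at 10.7, 10.3 and 8.63 CPM in naive libraries and at 0, 0.218 and 0 CPM in GC libraries (log2 -6.94, SE 2.10, adjusted p = 0.0201). Mx1 stood at 16.1, 14.9 and 20.8 CPM and at 0, 0.873 and 0 CPM (-5.84, SE 1.75, adjusted p = 0.0203). In both genes the only GC counts came from replicate B. Oas1a, an oligoadenylate synthetase that activates the nuclease RNase L, had 22.2, 37.1 and 22.3 CPM in naive and 1.78, 1.31 and 1.25 CPM in GC libraries (-4.23, SE 0.94, adjusted p = 0.00336). Oas3, a larger synthetase, fell from 15.7, 4.62 and 19.5 CPM to 0.827, 1.20 and 1.12 CPM (-3.66, SE 1.23, adjusted p = 0.0362). All 6 OAS family members had negative fold changes, and these 2 passed the test. With the activated libraries grouped by letter 5 of the 6 did, Oas2, Oasl1 and Oasl2 included (adjusted p = 8.25e-05, 7.95e-05 and 0.000755).

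Other effectors showed a like order. Slfn5, a Schlafen protein, had 19.2, 31.8 and 24.8 CPM in naive libraries, 0 CPM in GC A and B and 1.19 CPM in GC C (-6.01, SE 1.43, adjusted p = 0.0053). Slfn8 stood at 19.9, 20.9 and 17.8 CPM against 4.30, 5.02 and 7.71 CPM (-1.78, SE 0.44, adjusted p = 0.00545). Irgm1, an immunity-related GTPase of autophagy and vacuole defence, stood at 75.8, 59.2 and 90.5 CPM against 8.53, 7.72 and 8.90 CPM. It was 8.97-fold lower in GC cells (-3.16, SE 0.53, adjusted p = 0.000369). Xaf1, a pro-apoptotic factor, had 44.6, 41.2 and 51.4 CPM against 5.92, 5.92 and 6.46 CPM (-2.91, SE 0.93, adjusted p = 0.0287). These naive and GC values were each narrowly spread and far apart. Bst2, the tetherin that holds virions at the cell surface, had 13.9, 56.5 and 38.0 CPM against 8.53, 8.35 and 8.04 CPM (-2.12, SE 0.58, adjusted p = 0.0124). Its naive values were spread widely while the GC values were nearly equal. Trim30a, a regulator of Toll-like receptor signalling, had 118, 106 and 167 CPM against 35.7, 40.5 and 40.1 CPM (-1.75, adjusted p = 0.0371). The calls of Stat2, Oas3, Mx1, Mx2, Bst2, Trim30a and Xaf1 were each lost in at least 2 of 12 or 13 alternatives, with adjusted p up to 0.126.

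Rsad2, which encodes viperin, and Ifi44 had no count in any GC library. Rsad2 had 0.604, 0.204 and 1.59 CPM in naive libraries, at least 25.6-fold more than a floor of 3 counts over the GC libraries. For Ifi44, with 3.68, 0 and 0.832 CPM in naive libraries, the bound was 54.7-fold, and its naive B library was also at 0. Neither was called (adjusted p = 0.0786 and 0.132), and both were called lower with the activated libraries grouped by letter (adjusted p = 0.0245 and 0.0143). Isg20, a nuclease that degrades RNA, went the other way, at 32.7, 33.4 and 28.1 CPM in GC against 13, 10.7 and 17.5 CPM in naive libraries. It was not called in the fit by stimulus (log2 1.19, adjusted p = 0.396), and was called with the activated libraries grouped by letter (SE 0.24, adjusted p = 0.000979).

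**Figure D3:**
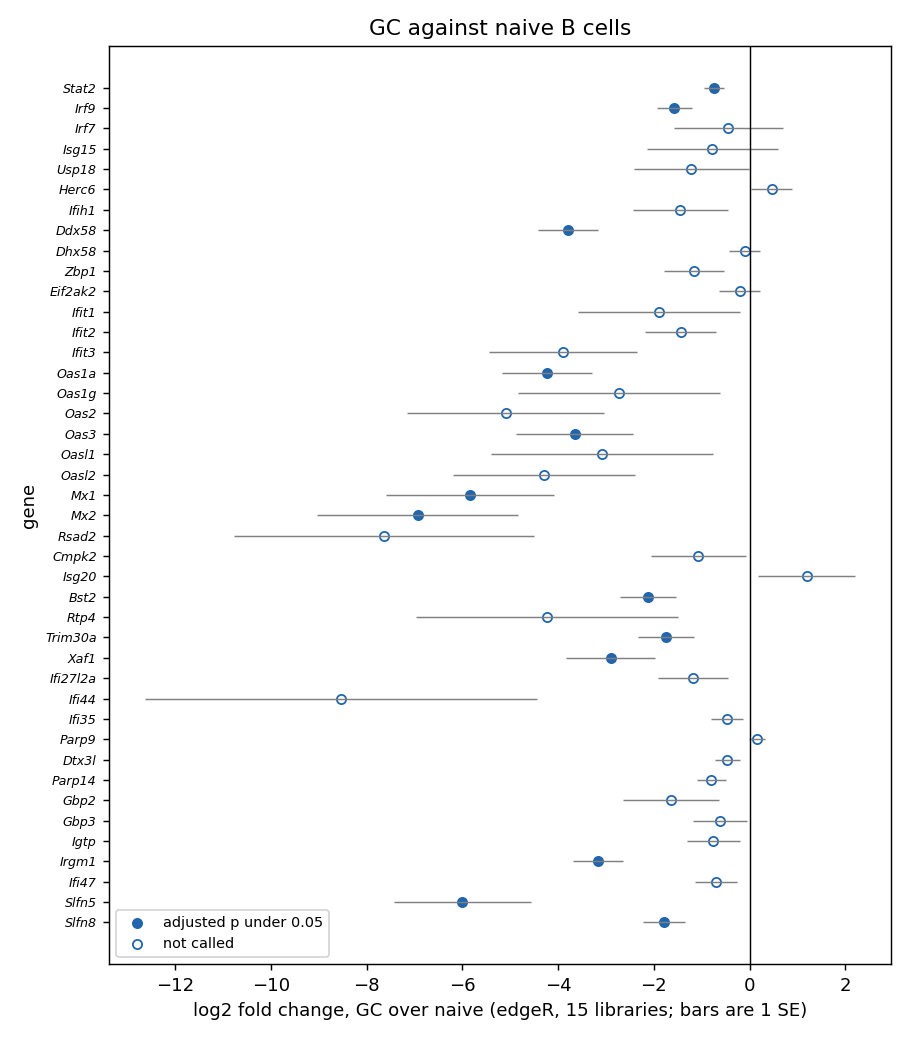
Log2 fold change of GC over naive cells (x axis, bars are 1 SE) for the 42 genes tested (y axis), with filled points for adjusted p under 0.05. All 13 filled points lie left of 0, from Mx2 at -6.94 to Stat2 at -0.75, and Herc6, Isg20 and Parp9 alone lie right of it.

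Activated libraries lettered A and C differed in nearly every member. Of 42 members tested, 39 were lower in A than in C and none was higher, in a fit of the 9 activated libraries with stimulus as a covariate. Of 15727 genes tested, 11.5% were lower and 11.9% higher. Between B and C, 38 were lower in B and 1, Gbp2, was higher, against 17.5% and 17.3% of genes. The median log2 fold change was -2.16 for A over C and -1.80 for B over C, against 0.02 over all genes in either comparison. A and B differed in both directions, with 7 members higher and 10 lower in A (16.6% and 14.5% of genes) and a median of -0.05. In 38 of 43 members all 3 libraries lettered C lay above all 6 lettered A and B (9.19% of genes), and 35 were called lower in both A and B than in C (6.52%). All A libraries lay below all C libraries in 40 of 43 members (16.4% of genes), and all B libraries in 39 (21.8%). Without LPS replicate B the 7 members higher in A than in B became 3, and the 1 higher in B than in C became 2.

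**Figure D4:**
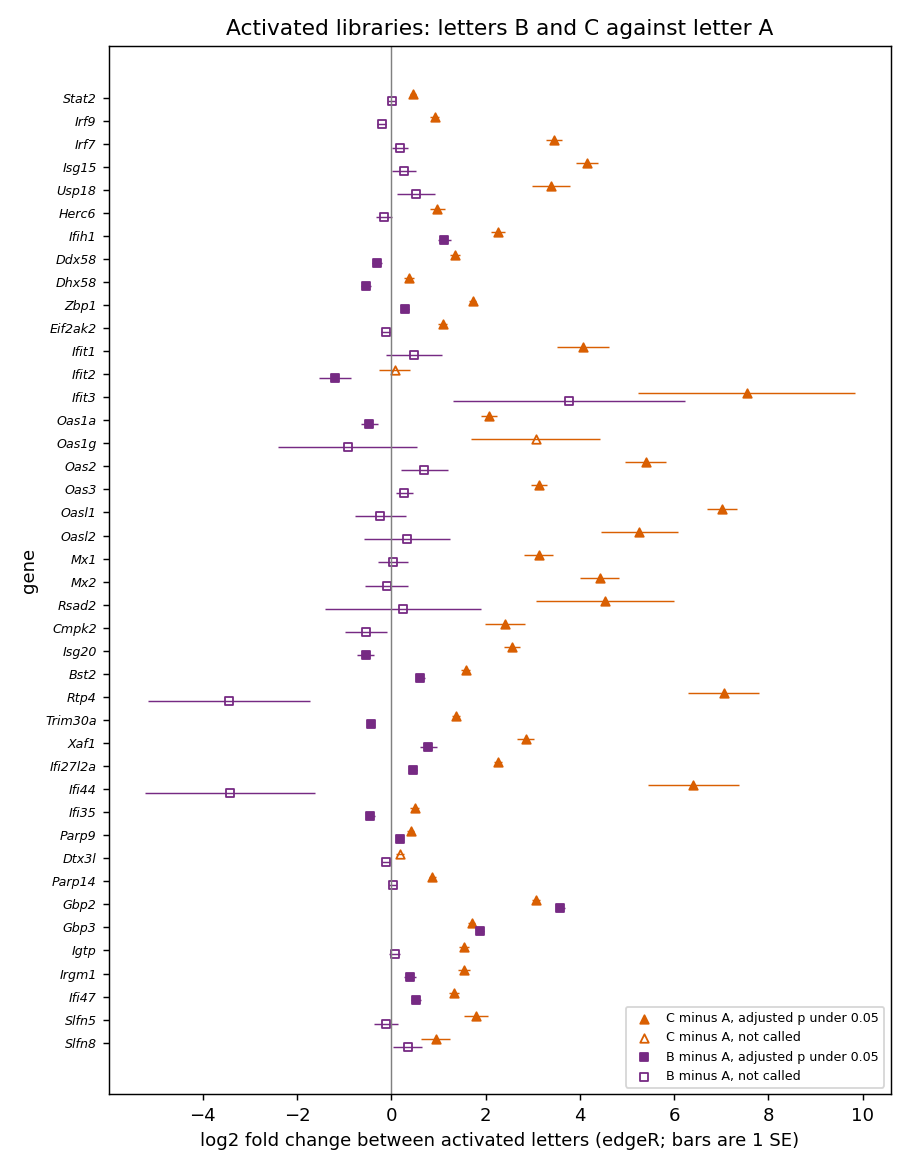
Log2 fold change between activated letters (x axis, bars are 1 SE) for the 42 genes tested (y axis), as C minus A (triangles) and B minus A (squares), filled for adjusted p under 0.05. The triangles lie right of 0 in all 42 genes and are filled in 39; the squares lie on both sides of 0 and reach furthest right in Ifit3, which is not called there, and in Gbp2.

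Plasma cell markers moved with the letter as well. The sum of Prdm1, Sdc1, Jchain and Tnfrsf17 ran from 1611 to 2942 CPM in activated C, from 85.2 to 132 CPM in activated A and from 28.2 to 33.9 CPM in activated B. Nearly all of it was Jchain, which encodes the joining chain of secreted antibodies. Tnfrsf17 was at 0 in activated A and B and at most 0.495 CPM in C. In GC libraries, where the interferon genes were low, the same sum ran from 1276 to 1604 CPM. Markers of conventional dendritic cells, mainly Flt3 and Batf3, summed to 388 to 445 CPM in activated B, 95.9 to 112 in A and 139 to 155 in C. Naive follicular markers summed to 1372 to 1437 CPM in A, 585 to 643 in B and 496 to 534 in C, and germinal centre markers to 998 to 1090, 603 to 698 and 485 to 628 CPM. Clec9a, which defines a class of conventional dendritic cells, was at 0 in every library. The part of these differences in the interferon genes was not tested, and cell makeup, animal, culture and any other property of a letter cannot be told apart.

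The transcription factors followed the letters unevenly. Irf7 stood at 4.71, 3.87 and 5.80 CPM in A (CD40, CpG and LPS), 5.03, 5.91 and 5.31 CPM in B, and 61.3, 47.1 and 48.4 CPM in C. It was thus 10.9-fold higher in C than in A (log2 3.45, SE 0.16, adjusted p = 1.07e-14) and level with naive cells there. Irf9 stood at 37.2, 42.8 and 44.1 CPM in A, with 35.3, 39.0 and 33.4 in B and 82.3, 74.6 and 77.5 in C. It was 1.89-fold higher in C than in A (adjusted p = 2.03e-08), but remained below every naive library. Stat2 differed least, at 96.6, 113 and 107 CPM in A, against 104, 108 and 105 in B and 148, 143 and 143 in C (1.38-fold, adjusted p = 7.64e-06).

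Isg15 and its partners, which attach and remove this ubiquitin-like protein, were raised together in C. Isg15 (chromosome 4) stood at 2.17, 1.09 and 1.19 CPM in A, with 1.59, 1.77 and 1.95 in B and 26.5, 23.1 and 28.7 in C. Naive libraries, at 6.37, 9.51 and 7.35 CPM, lay between the letters, and C was 17.8-fold higher than A (log2 4.15, SE 0.24, adjusted p = 5.82e-13). Usp18, the protease that removes Isg15 and restrains the receptor, had 0.992, 0.780 and 1.25 CPM in A, against 0.414, 1.85 and 2.47 in B and 10.5, 10.8 and 9.59 in C, 10.4-fold above A (adjusted p = 3.34e-07). Herc6, a ligase for Isg15 in mice, was 1.97-fold higher (adjusted p = 5.37e-05).

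All 5 nucleic acid sensors were higher in C than in A and in B. Ifih1, which encodes the RNA sensor MDA-5, differed between all 3 letters, with 8.87, 7.43 and 7.95 CPM in A, with 14.8, 17.7 and 20.7 in B and 42.1, 35.7 and 38.3 in C. No library of one letter overlapped another (A below B by 1.13 on the log2 scale, adjusted p = 9e-07, and A below C by 2.26, adjusted p = 4.59e-12). Zbp1, a sensor of Z-form nucleic acid, had 42.1, 46.9 and 40.7 CPM in A, against 48.7, 58.5 and 51.4 in B and 137, 144 and 147 in C, 3.31-fold above A. Ddx58 had 25.7, 30.4 and 28.9 CPM in A, with 24.7, 25.6 and 19.3 in B and 76.9, 71.6 and 67.2 in C, 2.54-fold above A. Eif2ak2 was 2.13-fold higher in C than in A and Dhx58, a regulator of the other RNA sensors, 1.29-fold. The call of Dhx58 was lost in 3 alternatives (adjusted p up to 0.163).

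Several OAS family members differed steeply. Oasl1, an OAS-like protein that restrains Irf7 translation, stood at 0.124, 0.339 and 0.659 CPM in A and at 0.191, 0.517 and 0.243 CPM in B. In C it reached 60.8, 38.4 and 46.5 CPM, above the 17.1, 11.2 and 27.9 CPM of the naive libraries. C exceeded A 129-fold (log2 7.01, SE 0.32, adjusted p = 3.03e-12) and B 152-fold (adjusted p = 2.4e-12). Oas2 had 0.186, 0.0678 and 0.593 CPM in A, against 0.382, 0.517 and 0.405 in B and 10.2, 11.6 and 12.4 in C, a 42.2-fold difference between A and C (adjusted p = 3.47e-10). Oasl2 had at most 0.264 CPM in A and B together and 3.87, 2.85 and 4.60 CPM in C (38.4-fold over A, adjusted p = 1.63e-05). Its C values stayed below the naive libraries, at 10.5, 13.9 and 13.1 CPM. Oas3 had 3.63, 6.45 and 5.34 CPM in A, with 6.05, 6.87 and 5.59 in B and 48.2, 38.7 and 46.2 in C (8.76-fold over A). Oas1a was 4.18-fold higher in C than in A, and Oas1g, under 1 CPM in all activated libraries, was not called (adjusted p = 0.116).

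The IFIT genes, whose proteins bind foreign RNA ends, did not move as a block. Ifit1 had 0.186, 0.204 and 0.528 CPM in A, against 0.191, 0.739 and 0.324 in B and 3.87, 4.02 and 7.10 in C (16.8-fold over A, adjusted p = 3.22e-06). Ifit2 had 3.41, 3.73 and 4.35 CPM in A, with 1.40, 2.00 and 1.62 in B and 2.40, 4.70 and 5.38 in C. Its A and C libraries overlapped (log2 of A over C -0.07, adjusted p = 0.925), and it was 2.30-fold higher in A than in B (adjusted p = 0.00816). Ifit3 had no count in any A library, 0.191 CPM in 1 B library and 0.464, 0.743 and 0.610 CPM in C. C was at least 18.9-fold above a floor of 3 counts over A (adjusted p = 0.0183), a call lost in 5 alternatives. Even in C it was far from its naive level of 20.8, 24.3 and 27.2 CPM. Ifit3b had no count in any activated library.

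Every one of the 12 Mx, viperin and other effector genes was higher in C than in A and in B. Rtp4, a chaperone of receptor export with antiviral activity, had 0, 0.136 and 0 CPM in A, 0 CPM in all B libraries and 4.80, 6.13 and 6.49 CPM in C. C exceeded B at least 163.5-fold, with 556 counts against none, and A by 7.05 on the log2 scale (adjusted p = 1.29e-07). Ifi44 had 0.124 CPM in 1 A library and none in B, against 3.02, 2.97 and 4.52 CPM in C, at least 99.1-fold over B (adjusted p = 2.05e-06). These genes were thus close to silent in A and B and expressed in C. Mx2 stood at 0.434, 0.339 and 0.330 CPM in A, against 0.414, 0.370 and 0.243 in B and 10.4, 6.13 and 7.51 in C, 23-fold over B (adjusted p = 2.91e-09). Xaf1 had 4.0, 5.05 and 5.28 CPM in A, with 7.48, 9.17 and 8.03 in B and 41.1, 27.6 and 34.8 in C. Bst2 had 26.1, 24.8 and 25.5 CPM in A, against 39.1, 40.2 and 37.7 in B and 81.0, 77.2 and 69.3 in C. In both, B was also above A without overlap (adjusted p = 0.00139 and 8.56e-06). Isg20 had 9.89, 8.62 and 16.2 CPM in A, with 8.08, 7.17 and 8.27 in B and 81.2, 63.6 and 56.2 in C (5.89-fold over A, adjusted p = 1.23e-09). Ifi27l2a had 40.5, 36.4 and 42.4 CPM in A, against 47.5, 58.0 and 59.5 in B and 196, 164 and 212 in C (4.79-fold over A, adjusted p = 2.33e-16). Both stood above every naive library in C. Trim30a, one of the most abundant members, had 60.3, 60.4 and 62.3 CPM in A, with 44.4, 41.0 and 49.8 in B and 175, 146 and 154 in C (2.59-fold over A).

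Gbp2 and Gbp3, guanylate-binding proteins of defence against intracellular microbes, broke from this pattern by being high in B. Gbp2 stood at 16.8, 16.7 and 15.9 CPM in A, against 196, 217 and 182 in B and 127, 135 and 153 in C. A was near the naive libraries (14.1, 20.4 and 17.6 CPM), and both other letters lay far above. B exceeded A 12-fold (log2 3.59, SE 0.09, adjusted p = 8.89e-21) and C 1.43-fold (adjusted p = 4.1e-06). Gbp3 stood at 28, 26.2 and 32 CPM in A, with 106, 108 and 105 in B and 92.8, 90.7 and 96.4 in C, 3.70-fold higher in B than in A (adjusted p = 1.19e-15). B and C were not called different in Gbp3 (1.14-fold, adjusted p = 0.0622), though their libraries did not overlap. Igtp, Irgm1 and Ifi47, the immunity-related GTPases of the list, were higher in C than in A (2.90-, 2.91- and 2.5-fold), and Igtp was not called between A and B (adjusted p = 0.698). Irgm1 had 20.2, 20.1 and 11.6 CPM in A, against 22.5, 24.2 and 20.2 in B and 58.5, 44.5 and 45.4 in C, and so stood below all naive libraries with each letter.

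Of the PARP9, DTX3L and PARP14 genes, which encode ADP-ribosylation enzymes and a ubiquitin ligase, Parp14 differed most between A and C. Parp9 had 90.3, 93.2 and 90.2 CPM in A, with 100, 104 and 107 in B and 116, 113 and 135 in C (1.33-fold, C over A, adjusted p = 7.8e-05). Parp14 had 72.5, 86.6 and 81.1 CPM in A, against 80.5, 80.9 and 83.3 in B and 160, 129 and 151 in C (1.83-fold, C over A). Dtx3l was not called between A and C (1.14-fold, adjusted p = 0.12). Of the Schlafen genes, Slfn5 was 3.48-fold higher in C than in A (adjusted p = 4.48e-06), with 9.06, 11.5 and 13.7 CPM in C. Slfn8 had 3.07, 2.27 and 2.93 CPM in A, with 3.92, 2.62 and 4.05 in B and 4.53, 5.42 and 5.77 in C, all well below its naive libraries.

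**Figure D5:**
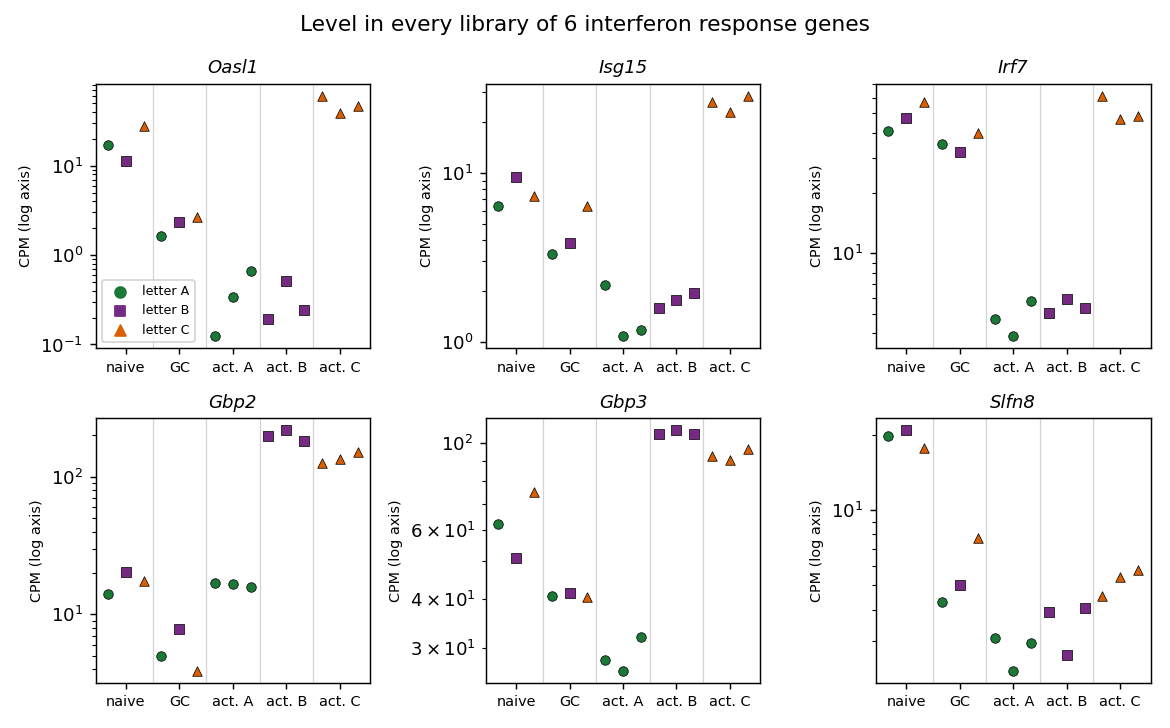
CPM on a log axis (y) of 6 genes in every library, by naive, GC and activated A, B and C on the x axis, with colour and shape for the replicate letter. Oasl1, Isg15 and Irf7 are high in activated C alone among activated libraries, Gbp2 and Gbp3 in B and C, and Slfn8 in none of them.

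Set against naive cells, most members were called lower in activated A and B. In activated C more members were called higher than lower, an order that all genes tested showed as well. Marker sums moved with the comparison to naive cells too. Naive follicular markers summed to 6380 to 7463 CPM in naive and 496 to 1437 CPM in activated libraries. Germinal centre markers went from 71.3 to 128.8 CPM in naive to 485 to 1090 CPM in activated libraries, and B cell markers from 10355 to 13206 CPM to 4637 to 5977 CPM. Their part in the result was not tested. These comparisons were added after the libraries had been seen to split by letter. In A, 29 members were lower and 3 higher than in naive cells (17.1% and 23.4% of genes), and in B 27 and 5 (18.8% and 24.3%). In C, 6 were lower and 14 higher (18.4% and 24.1%). The 3 comparisons share the naive libraries, so their values are given side by side and their likeness is no separate result. Of the 25 members lower in both A and B (14.4% of genes), 16 were not called in C, 6 were lower in C too and 3 (Isg15, Oas3 and Oasl1) were higher in C. The median log2 fold change was -1.88 in A, -2.04 in B and 0.30 in C, against 0.16, 0.14 and 0.15 over all genes. The 6 lower in C became 3 without CpG replicate C, LPS replicate C or naive replicate A, and 10 without naive replicate B.

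The 6 members called lower than in naive cells with every letter were Ifit3, Slfn8, Ifit2, Irf9, Ddx58 and Irgm1. A call did not need separate libraries. Naive replicate B had 1.97 CPM of Ifit2 and 70.1 CPM of Ddx58, below the CD40 and CpG libraries lettered C (2.40 and 4.70 CPM, and 76.9 and 71.6 CPM). Irf9 differed by -1.90, -2.10 and -0.98 on the log2 scale in A, B and C (adjusted p = 2.04e-08, 6.42e-09 and 1.5e-05). Slfn8 differed by -2.82, -2.47 and -1.90 (adjusted p = 1.18e-05, 3.42e-05 and 0.00031). Ifit3 in A was at least 732-fold lower than in naive cells. The members called higher than in naive cells with every letter were Eif2ak2 and Parp9. Eif2ak2 had 17.4, 11.3 and 13.8 CPM in naive libraries and a lowest, median and highest level of 25.7, 29.6 and 68.9 CPM in the 9 activated libraries. Its log2 fold changes were 1.05, 0.95 and 2.15 in A, B and C (adjusted p = 0.00127, 0.00259 and 1.88e-06). Ifih1 exceeded naive cells in B (2.05, adjusted p = 0.0269) and C (3.17, adjusted p = 0.00245) and was not called in A (0.92, adjusted p = 0.306). Its activated A libraries, at 7.43 to 8.87 CPM, still lay above all naive libraries, at 1.56 to 5.71 CPM.

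With the activated libraries grouped by stimulus, as titled, few members passed the test, and each group holds all 3 letters. Against naive cells 5 members were lower with CD40, 6 with CpG and 5 with LPS, against 14.3%, 14% and 14.2% of genes. Parp9 and Eif2ak2 were higher with each stimulus, against 19.8%, 19.7% and 19.5% of genes. Irf9, Slfn8, Ifit3 and Stat2 were lower with all 3 stimuli. Ifit2 was called with CD40, Cmpk2 with CpG, and Irgm1 with CpG and LPS. Cmpk2, a mitochondrial nucleotide kinase beside Rsad2, had 13.4, 6.05 and 22.4 CPM in naive libraries and 1.29, 1.03 and 3.25 CPM with CpG (log2 -2.90, SE 1.06, adjusted p = 0.0475). It stood at 2.23, 0.700 and 11.9 CPM with CD40 and 0.659, 0.892 and 7.40 CPM with LPS. With the replicate letter as a block in all 15 libraries 14, 15 and 14 members were lower with CD40, CpG and LPS, against 15.2%, 14.8% and 15% of genes. That block gives naive, GC and activated libraries of a letter the same shift, and no such pairing was seen between these groups.

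The counts with single stimuli rest on few libraries. Those lower with CD40 became 3 without CD40 replicate B and 9 without CD40 replicate C. Those lower with CpG became 3 without CpG replicate A, CpG replicate B, naive replicate A or naive replicate C. Those lower with LPS became 3 without LPS replicate A, LPS replicate B or naive replicate A and 8 without LPS replicate C. Without replicate C of a stimulus, 1 of the 2 members higher with it was still called. In every alternative run, Irf9, Ifit3 and Slfn8 were called lower and Parp9 higher with each stimulus.

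No member was called different between stimuli. Of the 42 tested, 0 were called between CD40 and CpG, CD40 and LPS, or CpG and LPS by edgeR's quasi-likelihood test, 0 had an unadjusted p under 0.05, and DESeq2 called 0. None of the 17144 genes (0%) was called in this fit either, so it says little about these genes. The libraries separated by letter under every title and not by title, and stimulus and letter were taken from the labels as given, which was not tested. Blocking the 9 activated libraries by letter, 27, 44 and 45 genes were called (0.172%, 0.28% and 0.286%) and again 0 members. In that edgeR fit 3 members in each comparison had an unadjusted p under 0.05, Irgm1 and Mx1 in both comparisons with LPS, and the lowest adjusted p of a member was 0.746 for CD40 and CpG, 0.271 for CD40 and LPS, and 0.507 for CpG and LPS. The median log2 difference over the members was then 0.02 for CD40 over CpG, -0.08 for CD40 over LPS and -0.09 for CpG over LPS. Within letter C, where the members were high, 24 of 43 members were lowest in the CpG library and 22 were highest in the LPS library, with 1 library of each. Over all genes tested, 29.3% were lowest in the CpG library and 32.4% highest in the LPS library.

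Naive libraries differed among themselves, which limits every comparison with them. The range of a member over the 3 naive libraries had a median of 0.856 on the log2 scale, against 1.12 over all genes tested, and 21 of 43 members spanned more than 2-fold. Members were highest most often in naive C (23 of 43, against 43.4% of all genes) and lowest most often in naive B (24 of 43, against 42.2%). Naive B had the fewest genes detected. Ifit1 had the widest range, with 2.58, 0 and 5.13 CPM, and Oas1g had 0, 4.96 and 0.208 CPM. Ifit3b had 3.52, 0 and 4.68 CPM and Ifi44 3.68, 0 and 0.832 CPM. These 4 genes are low, so a single library at or near 0 sets their range, and Oas1g and Ifit3b share sequence with Oas1a and Ifit3. Stat2 (0.21) and Slfn8 (0.23) varied least. In GC libraries the median range of a member was 0.614, against 0.447 over all genes.

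Per kilobase of annotated exon, Ifi27l2a, a small mitochondrial protein, was the most abundant member, at 136 CPM per kilobase in naive and 60.2 in GC cells. Bst2, Ifi35 (35.9), Trim30a (31.7), Stat2 (30.5) and Irf9 (28.6) came next in naive cells. Rsad2 (0.185) and Ifi44 (0.245) were lowest. In GC cells 11 members averaged under 1 CPM, against 1 in naive, 11 in activated A, 12 in activated B and 3 in activated C.

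Upstream of these genes, transcripts of the interferons themselves were close to absent. Of 21 ligand genes (type I, gamma and lambda), 14 had no count in any library and none exceeded 10 counts in a library. The highest was Ifna13 at 0.330 CPM in the LPS library lettered A. Ifnb1 was detected in 1 library, LPS lettered C, at 0.0554 CPM, and Ifng at most at 0.277 CPM. The interferon alpha genes are near-identical copies, so reads of several origins may be missing from these counts, and cells that had made interferon before collection or outside the sort would not be seen.

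Both chains of the type I interferon receptor were lower in GC cells. Ifnar1 stood at 182, 110 and 167 CPM in naive and at 28.3, 29.3 and 32.2 CPM in GC libraries (log2 -2.35, SE 0.21, adjusted p = 7.66e-07). Ifnar2 stood at 51.2, 29.1 and 51.0 CPM against 8.02, 6.79 and 6.59 CPM (-2.62, SE 0.31, adjusted p = 1.21e-05). Of the other receptor genes listed, Ifngr2 and Il10rb had fewer counts in every GC than in every naive library. Ifngr1 overlapped, with 3020, 2204 and 2539 unscaled counts in naive and 2286, 2467 and 2451 in GC libraries. Ifnlr1 went the other way, with 120, 172 and 152 unscaled counts in naive and 217, 284 and 220 in GC libraries. In activated libraries Ifnar1 ran from 75.7 to 110 CPM and was highest in B. Ifnar2 was lower in C than in A (log2 of A over C 0.42, adjusted p = 0.0251) and in B (0.66, adjusted p = 0.000375). Whether receptor levels had a part in the difference of the response genes between letters was not tested. Ifngr2, a chain of the interferon gamma receptor, had 136, 153 and 147 CPM in activated B, against 83.1 to 87.0 in A and 90.4 to 95.6 in C. Ifngr1, its other chain, was not highest in B. It had 1716, 1472 and 1263 unscaled counts in A (CD40, CpG and LPS), 1155, 1079 and 1024 in B and 766, 987 and 1233 in C.

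Of the whole list of 69 ligands, receptors, kinases, factors, sensors and inhibitors, 47 were tested. In GC cells 22 were lower and 1 higher than in naive cells (16.5% and 17.9% of all genes). Tlr7, the endosomal sensor of single-stranded RNA, had 74.8, 56.6 and 50.4 CPM in naive and 0.127, 0.382 and 0.329 CPM in GC libraries (log2 -7.73, SE 0.42, adjusted p = 7.46e-09). Ifi204 had 5.85, 11 and 2.39 CPM against 0, 0.245 and 0 CPM (-6.18, adjusted p = 0.00396). The feedback inhibitor Socs3 had 108, 427 and 58.9 CPM against 3.31, 2.89 and 2.83 CPM (-6.04, adjusted p = 7.09e-05), so its naive libraries were spread widely but lay far above GC. Il10rb (-3.76), Tnfaip3 (-2.92) and Ikbke (-2.76) came next, and Ptpn2, a phosphatase of the pathway, was the gene called higher (0.85). Between activated letters the list moved in both directions. It had 9 higher and 7 lower in A than in C (11.9% and 11.5% of all genes). It had 14 and 15 in B against C (17.3% and 17.5%) and 14 and 12 in A against B (16.6% and 14.5%), with medians of 0.01, -0.03 and 0.03. Adar, an RNA editing enzyme with an interferon-induced form, had 73.3, 79.0 and 79.6 CPM in A, with 56.5, 59.8 and 60.5 in B and 147, 116 and 130 in C. The log2 difference from C was -0.76 for A (adjusted p = 5.22e-08) and -1.15 for B (adjusted p = 2.53e-11). Tlr4, the LPS receptor, had 0.992, 1.29 and 0.725 CPM in A, against 1.46, 1.74 and 2.11 in B and 7.66, 3.78 and 4.88 in C, with A below C (-2.42, adjusted p = 6.74e-05) as well as B (-1.59, adjusted p = 0.00251).

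A further 83 genes known to be induced by interferon, outside the 43, also differed by letter. Of 78 tested, 55 were lower and 3 higher in A than in C (11.5% and 11.9% of all genes), with a median log2 fold change of -0.53. In B against C, 46 were lower and 6 higher (17.5% and 17.3%), with a median of -0.40. The largest differences between A and C were in Ifi213 (-6.30, adjusted p = 0.00032), Ifi211 (-5.39, adjusted p = 8.51e-06) and Ifi214 (-5.26, adjusted p = 0.0119), of the family of interferon-inducible DNA sensors. In GC against naive cells 33 of 82 were lower and 4 higher (16.5% and 17.9%). Pml, the organiser of nuclear bodies, fell by 6.61 on the log2 scale (SE 0.40, adjusted p = 2.12e-08), and Apobec3, a cytidine deaminase that restricts retroviruses, was higher (2.91, SE 0.16, adjusted p = 1.02e-08).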

How the data were processed

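Values are the authors' deposited raw counts of reads in 54838 Ensembl genes of 15 libraries. Per the submitters' processing notes, the tools were STAR 2.7.10a, featureCounts 2.0.6 and DESeq2, and the build was mm10/GRCm38. Strand setting, handling of multi-mapping reads and annotation release are not given in the sources used here. GENCODE M21 named 54809 gene IDs, and the other 29 were kept under their IDs. All 15 columns were matched to samples by library name.

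Counts were scaled by TMM, filtered with filterByExpr and tested (edgeR 4.0.16 in R 4.3.3; glmQLFit robust, glmQLFTest, two-sided, Benjamini-Hochberg over all genes tested, threshold 0.05). The 5-group fit used all 15 libraries (17144 genes), and the letter fit the 9 activated libraries with titled stimulus as covariate (15727 genes). The fit with activated libraries grouped by letter was added after seeing the data. CPM use TMM-adjusted totals, and the level of the set uses log2 CPM with a prior count of 2 (limma 3.58.1 is loaded by edgeR). Where a group has no count, the fold is a bound against a floor of 3 counts over the group, and it covers counting error only, as reads carry no molecular identifiers. Both fits were tested on simulated counts, in which all genes had the same spread and only genes with ample counts were changed. The simulated 5-group data held no difference between letters. The simulation therefore does not cover members near 0 or groups of mixed letters, and the fit grouped by letter was not simulated.

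Same-letter activated libraries deviated together (correlations 0.362 to 0.495 over 9 pairs), while the other 21 pairs of groups gave -0.0696 to 0.0752, so letters pair activated libraries with each other only. Alternatives were size factors as in DESeq2, other filters, DESeq2 1.42.0, other sample sets, a letter block and leaving out each library. Members and lists were chosen with earlier results of these data known. Named genes were, by rule, the up to 10 most changed members called in GC and in any activated group against naive, the up to 6 in each letter comparison, the 4 with the highest mean CPM, the 4 most spread in naive cells, and, of the pathway list, ligands, receptors and up to 6 called genes. Others, such as Irf7, Isg15, Isg20, Rsad2 and Ifit1, were named after their values were seen, as were those of the further interferon-induced genes. Some items are not reported here.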

Additional observations from a re-analysis of the deposited data

Results flagged for a closer look

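In 4 genes every activated library lettered A lay below every naive library and every activated library lettered C lay above. The 2 letters thus stood on opposite sides of the naive levels. These 4 were picked by that order, which already places C above A, so their values are a description and the difference was not tested on independent libraries. Isg15 ran from 1.09 to 2.17 CPM in A, 6.37 to 9.51 in naive and 23.1 to 28.7 in C, with a log2 of C over A of 4.15. Oasl1 ran from 0.124 to 0.659, 11.2 to 27.9 and 38.4 to 60.8 CPM, with a log2 of C over A of 7.01. Ifi27l2a ran from 36.4 to 42.4, 54.2 to 79.4 and 164 to 212 CPM (log2 of C over A 2.26). Gbp3 ran from 26.2 to 32, 51.0 to 74.9 and 90.7 to 96.4 CPM (log2 of C over A 1.70). Each letter holds 3 libraries that may share cells or animals, and the cause of the difference was not tested.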

How the results depend on the processing

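No result reversed under any alternative. Members lower in GC than in naive cells numbered 13, but 8 with no filter on low counts, 20 in the 6 libraries alone and 27 with activated libraries grouped by letter, and 6 to 13 when 1 library was left out. Members higher there numbered 0, but 1 in the 6 libraries alone and 1 with activated libraries grouped by letter. DESeq2 called 4 members higher with each of CD40, CpG and LPS. With the replicate block of letters the members lower with CD40, CpG and LPS numbered 14, 15 and 14, and those with LPS numbered 3 in its 6 libraries alone; this pairing changed no call between stimuli. Leaving out 1 library gave 1 to 3 higher with each stimulus, and 3 to 9, 3 to 6 and 3 to 8 lower. Between activated letters A and B, 4 were higher with no stimulus covariate, and leave-one-out gave 3 to 7 higher and 7 to 10 lower. It gave 36 to 37 lower in A than in C, and 1 to 2 higher and 34 to 37 lower in B than in C. Against naive cells it gave 3 to 4 higher and 22 to 30 lower in A, 4 to 5 and 21 to 31 in B, and 14 to 17 and 3 to 10 in C. The level of the set moved with a prior count of 0.5 to 1.84 in GC, 1.88 in activated A and 2.04 in activated B, and as a median over members to 2.67, 2.98, 2.97 and, in activated C, 5.45. Leave-one-out moved it to 3.98 to 4.36 in naive, 2.09 to 2.13 in GC, 2.09 to 2.19 in A, 2.28 to 2.36 in B and 4.45 to 4.57 in C. Of the members called, 6 of 13 in GC, 35 of 39 in A against C and 34 of 39 in B against C were called in every alternative. The cause of these shifts was not tested. Genes under 1 CPM, such as Rsad2, Oas1g and Ifit3 in activated cells, are limited by depth.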
